A study of Mus musculus with 82 samples.

Results

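The 10 genes Gas5, Snhg1, Snhg3, Snhg5, Snhg6, Snhg8, Snhg12, Rabggtb, Eif4a2 and Rpl13a host small nucleolar RNAs (snoRNAs) in their transcripts and were chosen by name, with measured values of these samples known, from the 24754 curated RefSeq genes that are not themselves small RNA genes. The RefSeq annotation of the mouse genome build GRCm38 (mm10) gave 257 genes with a snoRNA on their own strand, so the members are 10 of 257 snoRNA host genes. Sense reads on each member were split into those whose RNA 3′ end lay on an annotated snoRNA, extended by 20 bp at each side, and the rest. The level, the share on snoRNAs and the number of cells with 2 or more reads were the measures used for the choice, and they are given below as descriptions without a test.

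SnoRNAs are short RNAs that guide chemical changes on ribosomal and spliceosomal RNAs. In mammals most lie in introns: the host is transcribed by RNA polymerase II, the intron is spliced out and debranched, and exonucleases trim both sides until they meet the snoRNA bound by its core proteins. C/D snoRNAs carry a C box near the 5′ end and a D box near the 3′ end and guide ribose methylation, while H/ACA snoRNAs end shortly after an ACA triplet and guide pseudouridylation. Gas5 and the Snhg genes make long non-coding RNAs whose best known products are their snoRNAs. Rabggtb (a subunit of the enzyme that attaches lipid groups to Rab proteins), Eif4a2 (a translation initiation helicase) and Rpl13a (a large-subunit ribosomal protein) encode proteins and carry snoRNAs in their introns.

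All libraries came from untreated V6.5 mouse embryonic stem cells, an established line, grown in serum and leukaemia inhibitory factor. Nuclei ran on with nucleotides that carry a propargyl group at the 3′ side. The labelled RNA was joined by click chemistry to DNA that holds a barcode and a unique molecular identifier (UMI). The base beside that DNA was taken as the RNA 3′ end of each read. AGTuC used bulk nuclei lysed by sarkosyl during the run-on (2 libraries), inAGTuC used groups of intact nuclei in the wells of a plate at a lower sarkosyl concentration (4 libraries), and scGRO-seq placed 1 intact nucleus in each well (2518 cells in 35 libraries of 10 batches). AGTuC therefore differed from the other 2 assays in detergent, input and run at once, and these cannot be told apart. Among the 10 batches, only Exp208 also held inAGTuC libraries (1 and 2). Libraries 3 and 4 of inAGTuC are labelled Exp234 and Exp261, labels that also occur on scGRO-seq lists outside the 10 batches. Both AGTuC libraries carry 1 batch label, so with the batch as the unit inAGTuC had 3 values and AGTuC 1, and no test against AGTuC could then go below p = 0.0909 (exact permutation test). The labels do not say that batches were separate cultures, so p-values measure the spread between these batches and libraries, which may be technical.

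The scGRO-seq batches held 223119 to 4928371 reads in kept cells, the inAGTuC libraries 623265 to 1462003 and the AGTuC libraries 2231837 and 4755740. Some molecules, defined by position, strand, barcode and UMI, stood in more than 1 library and were left out: 19% of all deposited reads, and, of the reads on members, 28.3% of those on snoRNAs and 36.5% of the others in scGRO-seq, 18% and 26.6% in inAGTuC, and 2.43% and 0.989% in AGTuC. One further scGRO-seq list shared 99.7% of its molecules with inAGTuC library 4 and was not used. These molecules thus stand under both assay names, and the labels do not settle which assay made library 4. Every inAGTuC value that includes library 4 carries this doubt. By scGRO-seq batch the shares left out went both ways, such as 44.9% on snoRNAs and 16.8% of the others in Exp160, but 31.7% and 49.9% in Exp263. The kept cells carried 254 barcodes, of which 226 occurred in 2 or more libraries, so a cell is a barcode within a library. As barcodes recur and UMIs are short, separate molecules at 1 base can match between libraries and be left out. How many did was not tested. All 8 stem cell markers had reads in each assay, and their sum in RPM (reads per 1000000 reads of the batch or library) was 216 to 1076 in scGRO-seq, 319 to 685 in inAGTuC and 1132 to 1175 in AGTuC. The 12 markers of fibroblasts, endoderm, mesoderm and neural cells summed to 19.5 to 73, 41.2 to 69.1 and 31.8 to 32.6 RPM, and 12, 12 and 8 of them had reads.

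The members' RefSeq spans held 38 annotated snoRNAs, 28 C/D and 10 H/ACA. Gas5 and Snhg1 each held 8, Eif4a2 held 5, Snhg12 and Rpl13a held 4, Rabggtb held 3, Snhg3 and Snhg5 held 2, and Snhg6 and Snhg8 held 1. The spans and strands on GRCm38 were Gas5 at chr1:161034601-161038539 (plus), Snhg1 at chr19:8723487-8726326 (plus), Snhg3 at chr4:132351933-132353686 (minus), Snhg5 at chr9:88521052-88522897 (minus), Snhg6 at chr1:9942025-9944118 (minus), Snhg8 at chr3:123507552-123508336 (minus), Snhg12 at chr4:132308678-132311024 (plus), Rabggtb at chr3:153907289-153912966 (minus), Eif4a2 at chr16:23107468-23114132 (plus) and Rpl13a at chr7:45125563-45128745 (minus). All 38 snoRNAs lay in introns of their hosts except 1 in Rabggtb and 1 in Snhg8 that touched an annotated exon, Snhg8 being annotated as a single exon. The snoRNA with most scGRO-seq reads in each member is printed below so that the positions of RNA 3′ ends given further on can be placed on its sequence. Each run gives the annotated snoRNA and the 10 bases that follow it, from the GRCm38 RefSeq assembly, 5′ to 3′ on the transcribed strand. Capitals mark the C box (TGATGA) and D box (CTGA) of C/D snoRNAs and the ACA triplet of H/ACA snoRNAs, where found.
SNORD24 of Gas5, chr1:161036057-161036149, plus strand: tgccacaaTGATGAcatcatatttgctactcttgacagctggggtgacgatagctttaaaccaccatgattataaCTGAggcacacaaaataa
SNORD28 of Snhg1, chr19:8724868-8724953, plus strand: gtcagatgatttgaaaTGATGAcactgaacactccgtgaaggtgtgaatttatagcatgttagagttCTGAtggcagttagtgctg
Snora73a of Snhg3, chr4:132352765-132352979, minus strand: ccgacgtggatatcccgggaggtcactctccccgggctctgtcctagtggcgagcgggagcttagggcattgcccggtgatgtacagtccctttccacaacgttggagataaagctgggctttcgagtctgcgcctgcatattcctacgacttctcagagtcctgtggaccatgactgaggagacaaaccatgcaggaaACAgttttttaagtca
Snord50b of Snhg5, chr9:88521787-88521868, minus strand: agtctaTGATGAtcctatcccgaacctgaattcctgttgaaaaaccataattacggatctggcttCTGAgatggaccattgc
Snord87 of Snhg6, chr1:9942460-9942543, minus strand: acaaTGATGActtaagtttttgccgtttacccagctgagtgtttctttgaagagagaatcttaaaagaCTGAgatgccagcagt
Snora24 of Snhg8, chr3:123507927-123508066, minus strand: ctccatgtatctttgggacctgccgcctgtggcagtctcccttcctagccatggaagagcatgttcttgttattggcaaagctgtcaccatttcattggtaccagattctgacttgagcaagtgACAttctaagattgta
Snora16a of Snhg12, chr4:132309465-132309610, plus strand: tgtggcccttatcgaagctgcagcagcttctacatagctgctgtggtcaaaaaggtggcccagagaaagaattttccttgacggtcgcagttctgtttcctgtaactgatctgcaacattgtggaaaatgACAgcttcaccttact
SNORD45 of Rabggtb, chr3:153911600-153911690, minus strand: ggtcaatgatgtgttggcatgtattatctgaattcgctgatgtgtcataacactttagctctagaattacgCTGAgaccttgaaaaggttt
Snord2 of Eif4a2, chr16:23108953-23109030, plus strand: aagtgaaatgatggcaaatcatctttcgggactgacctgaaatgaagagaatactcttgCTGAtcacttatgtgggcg
Snord33 of Rpl13a, chr7:45126854-45126945, minus strand: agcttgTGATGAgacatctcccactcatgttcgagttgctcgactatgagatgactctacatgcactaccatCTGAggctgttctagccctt

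Among the 28 C/D snoRNAs, CTGA was found in the search window at the 3′ end of 28 and TGATGA in the first 25 bases of 17. The same searches found CTGA in 96.2% and TGATGA in 72.1% of 373 RefSeq C/D snoRNAs, and in 13.9% and 0.851% of equally long windows of the host genes outside snoRNAs. ACA was found near the end of 8 of the 10 H/ACA snoRNAs, against 66.6% of 876 in RefSeq and 22.2% of host windows. Only the transcribed strand was searched, and SNORD45, Snord2 and SNORD26 are examples without an exact TGATGA near the start.

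In scGRO-seq nearly all sense reads on these genes ended within 20 bp of a snoRNA or on it. Their share of the pooled members' reads was 89.7% in the lowest batch, 93.5% in the median batch and 97.2% in the highest (mean 93.5% ± 2.04, SD, n = 10 batches). In inAGTuC libraries 1 to 4 it was 91.4%, 86.7%, 76.6% and 94.5% (87.3% ± 7.80, SD, n = 4). The 2 AGTuC libraries gave 21% and 22.5%. Every scGRO-seq batch and every inAGTuC library lay far above both bulk libraries, and within Exp208 the scGRO-seq share was 92.1%, close to the 91.4% and 86.7% of the inAGTuC libraries of that batch. With the window cut to the annotation itself, without the 20 bp, the shares were 52.2% in scGRO-seq, 63.9% in inAGTuC and 15.8% in AGTuC, so the order of the first 2 assays turned. Reads that end just past a snoRNA then count as outside it. In the pooled scGRO-seq cells the most frequent end lay past the annotation in 25 of the 35 snoRNAs with at least 1000 reads.

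The pooled level followed the same order. The members together received 7881 RPM in the lowest, 15082 in the median and 37688 in the highest scGRO-seq batch. The inAGTuC libraries gave 10389, 5016, 1163 and 31723 RPM, and AGTuC gave 1752 and 1823. The 4 inAGTuC libraries spread 27.3-fold and the 10 scGRO-seq batches 4.78-fold, while the AGTuC libraries differed 1.04-fold. Library 3 of inAGTuC lay below AGTuC and library 4 above 9 of the 10 scGRO-seq batches, so the inAGTuC mean of 12073 ± 13635 RPM (SD, n = 4) describes no single library well. On snoRNAs alone the mean level was 44.3-fold higher in scGRO-seq than in AGTuC, and 28.7-fold higher in inAGTuC. Without library 4 the inAGTuC mean was 12.6-fold that of AGTuC. Because cells were pooled, more cells carrying these RNAs and more RNA per cell cannot be told apart in such levels.

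**Figure D1:**
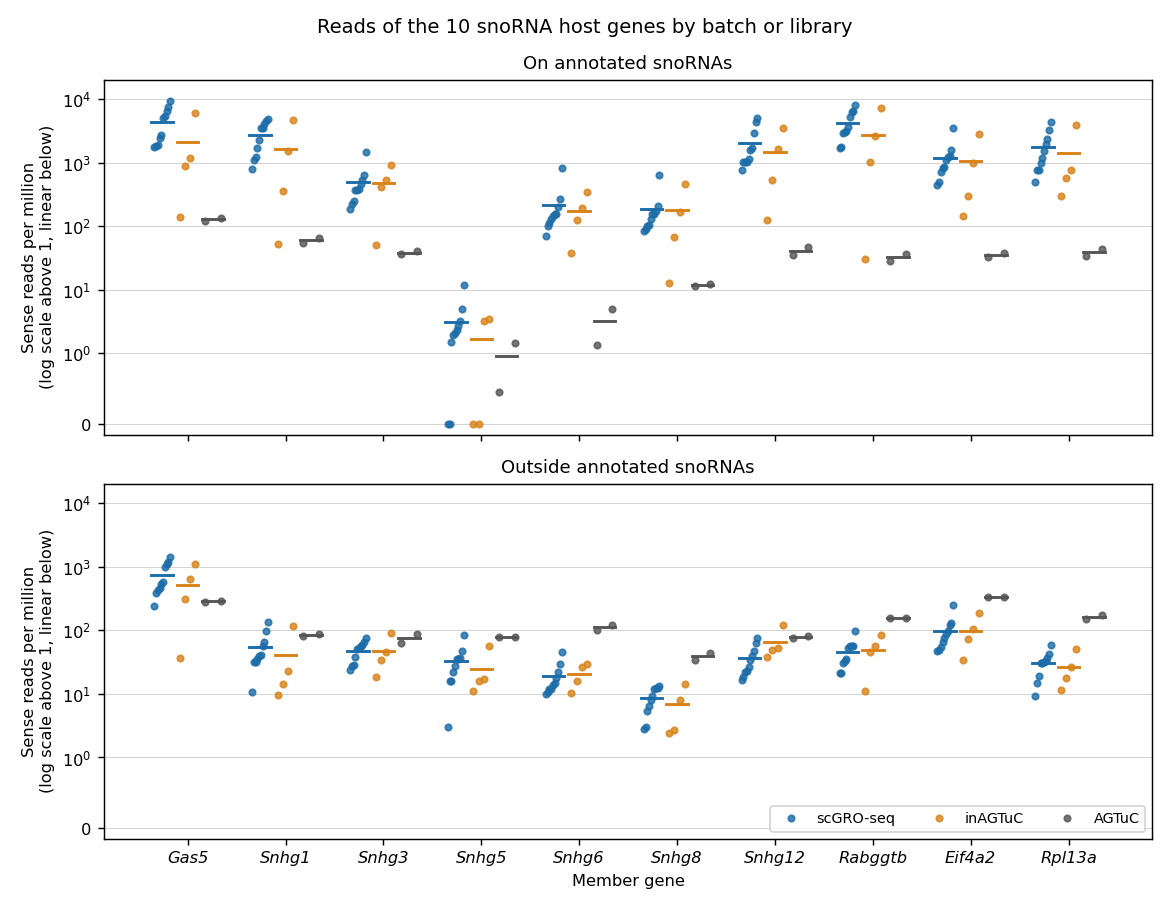
Sense RPM on annotated snoRNAs (top) and outside them (bottom) for each member, on an axis that is logarithmic above 1 and linear below. Points are the 10 scGRO-seq batches (blue), 4 inAGTuC libraries (orange) and 2 AGTuC libraries (grey) and bars are means. On snoRNAs the scGRO-seq batches lie above both AGTuC libraries for every member except Snhg5, a count without a background over all hosts. Outside snoRNAs AGTuC is mostly higher.

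Rabggtb had the highest read density of the members on its snoRNA windows in scGRO-seq. Its 3 snoRNAs received 1674 RPM in the lowest, 3393 in the median and 8041 in the highest scGRO-seq batch, 2626, 1027, 30.1 and 7261 RPM in the 4 inAGTuC libraries, and 28.7 and 36.2 RPM in AGTuC. All scGRO-seq batches were above AGTuC, whereas inAGTuC library 3 was at the AGTuC level. The scGRO-seq mean was 130-fold that of AGTuC. Per kb of snoRNA window Rabggtb reached 13743 RPM in scGRO-seq against 8.55 RPM per kb in the rest of the gene, a ratio of 1607, while the ratio in AGTuC was 3.62. SNORD45, Snord45c and Snord45b supplied 46.9%, 36.3% and 16.8% of these reads.

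Gas5, first described as a transcript of growth-arrested cells, had the most reads of all members in scGRO-seq and AGTuC. On its snoRNAs it received 1780 RPM in the lowest, 3816 in the median and 9381 in the highest scGRO-seq batch, 1171, 884, 138 and 6089 RPM in inAGTuC, and 134 and 121 RPM in AGTuC. The batches again lay above AGTuC without overlap, and the means differed 34.7-fold. The share on snoRNAs was lower than in most members in scGRO-seq, 85.0% ± 4.14 (SD, n = 10), and in inAGTuC, 75.6% ± 8.54 (SD, n = 4). In AGTuC it was 31.8% and 30.1%, above the pooled members. SNORD24 held 38.2% of the snoRNA reads of Gas5, SNORD75 23.4% and SNORD74 13.1%. Reads of SNORD75 had a median mapping quality of 8, against 24 for SNORD24, so the placement of part of them is uncertain.

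Most of the other reads of Gas5 lay on 1 further small RNA. GENCODE annotates Mir5117 as a snoRNA in an intron of Gas5, where RefSeq has no snoRNA, and 9299 reads or 91.6% of the scGRO-seq reads outside the RefSeq snoRNAs of Gas5 ended on it. The fraction was 82.8% in inAGTuC and 2.49% in AGTuC. It is printed here because it decides several values below. Its sequence has a TGATGA near the start and a CTGA near the end, both in capitals, and its most frequent RNA 3′ end in scGRO-seq lay 1 base before the annotated end.
Mir5117 of Gas5, chr1:161037356-161037449, plus strand: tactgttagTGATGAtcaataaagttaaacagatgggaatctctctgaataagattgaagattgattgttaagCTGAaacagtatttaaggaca

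With Mir5117 and the other GENCODE spans counted as snoRNAs, an alternative chosen after seeing the data, the share of Gas5 became 97.7% ± 1.43 (SD, n = 10) in scGRO-seq and 91.8% ± 6.92 (SD, n = 4) in inAGTuC but only 32.7% on average in AGTuC. Its level outside small RNAs then fell from a mean of 730 to 95.7 RPM in scGRO-seq and stayed near its former value in AGTuC, 276 against 283 RPM.

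Snhg1 and Snhg12 also lay above AGTuC on their snoRNAs in every scGRO-seq batch. The 8 C/D snoRNAs of Snhg1 received 802 RPM in the lowest, 2853 in the median and 4833 in the highest scGRO-seq batch, 1497, 352, 52 and 4614 RPM in inAGTuC, and 54.7 and 65.0 RPM in AGTuC. SNORD28 (31.3%), SNORD26 (27.8%) and Snord22 (14.1%) led this group. Snhg12, which carries 3 H/ACA snoRNAs and 1 C/D snoRNA, received 772, 1337 and 5021 RPM in the lowest, median and highest batch, 1641, 539, 127 and 3524 RPM in inAGTuC, and 34.9 and 46.9 RPM in AGTuC. Snora16a held 39.3% of its snoRNA reads, Snord99 35.4% and Snora61 14.8%. The means of scGRO-seq exceeded those of AGTuC 45.7-fold for Snhg1 and 49.9-fold for Snhg12, and their shares on snoRNAs were 97.8% ± 1.29 and 97.7% ± 1.59 (SD, n = 10 each). Snora61 reads had a median mapping quality of 5.

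The other 2 protein-coding hosts showed the same pattern at a lower level. In Rpl13a, the snoRNA reads were 488 RPM in the lowest, 1351 in the median and 4331 in the highest scGRO-seq batch, 757, 578, 295 and 3935 RPM in inAGTuC, and 34.1 and 43.1 RPM in AGTuC. Snord33 held 41.4% of them, Snord34 30% and Snord32a 16.1%. For Eif4a2 the values were 440, 982 and 3451 RPM in scGRO-seq, 977, 295, 146 and 2801 RPM in inAGTuC, and 33.2 and 38.3 RPM in AGTuC. Neither gene overlapped between scGRO-seq and AGTuC, with mean folds of 45.6 and 33.5. The leading snoRNAs of Eif4a2 were the C/D snoRNA Snord2 with 50.5%, the upstream copy of SNORA63 with 20.7% and Snora81 with 11%.

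Snhg3, Snhg6 and Snhg8, with 1 or 2 snoRNAs each, were the lower hosts. The 2 snoRNAs of Snhg3, Snora73a and Snora73b (copies of U17, needed for cleavage of the ribosomal RNA precursor), received 188 RPM in the lowest, 377 in the median and 1475 in the highest scGRO-seq batch, 528, 411, 51.3 and 928 RPM in inAGTuC, and 36.3 and 40.4 RPM in AGTuC. Snora73a and Snora73b held 65.2% and 34.8% of them, and both had a median mapping quality of 14. Their sequences are nearly the same, and whether reads were split between the copies was not tested. Snord87 of Snhg6 received 70.5, 150 and 834 RPM in scGRO-seq and 125, 196, 37.6 and 343 RPM in inAGTuC but 1.34 and 5.05 RPM in AGTuC, which came from 3 and 24 reads. For Snora24 of Snhg8 the batches gave 83.7, 142 and 641 RPM, inAGTuC gave 164, 66.9, 13 and 467, and AGTuC gave 11.6 and 12.2. The highest value of all 3 genes came from Exp156, and all batches lay above AGTuC. The shares on snoRNAs were 88.9% ± 5.57, 90.0% ± 4.82 and 94.4% ± 3.41 (SD, n = 10 each). Against AGTuC the snoRNA means were 12.8-fold higher for Snhg3 and 15.4-fold for Snhg8. For Snhg6 the fold was 161 against AGTuC library 1 and 42.8 against library 2.

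Snhg5 was the exception. Its snoRNAs Snord50b and Snord50a together received 75 of 453 sense reads in all scGRO-seq batches, 7 of 133 in inAGTuC and 8 of 555 in AGTuC. The batches ranged from 0 reads in Exp156 and Exp260, where a count of 0 allows up to 13.4 and 8.36 RPM, through a median of 2.21 to 12 RPM in Exp236. The inAGTuC libraries had 3.21 RPM, 0 reads, 0 reads and 3.44 RPM, where 0 allows up to 3.65 and 2.05 RPM. The mean share was 12.1% ± 11.4 (SD, n = 10), and the batches overlapped the AGTuC libraries, which had 0.448 and 1.47 RPM. The 2 sequences are nearly the same, so reads could be split between Snord50b and Snord50a. Per kb of window the mean was 13.7 RPM in scGRO-seq, below the 20 RPM per kb of the rest of the gene, whereas every other member had a ratio of at least 20.6. These limits cover counting error only.

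Per kb of snoRNA window in scGRO-seq, the members ran from Rabggtb (13743 RPM per kb) through Gas5 (4941), Snhg12 (3845), Rpl13a (3680), Snhg1 (2905), Snhg6 (1898), Eif4a2 (1449), Snhg8 (1079) and Snhg3 (998) to Snhg5 (13.7). The neighbours from Gas5 to Snhg3 in this order differ by less than the SD over batches of either gene, which was 3015 RPM per kb for Gas5 and 761 for Snhg3. Rabggtb, with an SD of 7009, was more than 1 SD above Gas5, and Snhg5, with an SD of 15.4, was more than 1 SD of Snhg3 below it.

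Set among all hosts, a majority on snoRNAs was common, and 6 of the members were among the 7 hosts with most snoRNA reads. In scGRO-seq 9 of 10 members had at least 50% of their reads on snoRNAs, against a background of 41.5 percent of the 241 host genes with at least 50 reads. In inAGTuC it was 9 of 10 against 41.7 percent of 228, and in AGTuC 0 of 10 against 0.952 percent of 210. The members were named for this signal, so nothing is read from the excess. How many of all hosts had snoRNA levels without overlap between scGRO-seq and AGTuC was not computed. The lack of overlap given above for single members therefore has no background. They held 38.7% of all host snoRNA reads in scGRO-seq, 33% in inAGTuC and 33.8% in AGTuC. By snoRNA reads in scGRO-seq Rabggtb ranked 1, Gas5 2, Snhg1 4, Snhg12 5, Rpl13a 6 and Eif4a2 7, but Snhg3 34, Snhg6 56, Snhg8 59 and Snhg5 131. The other hosts with most snoRNA reads were 2410006H16Rik, Rpl17, Nop56, Rpl7a and Rpl4, whose shares ran from 95.8% in Rpl4 to 99.5% in 2410006H16Rik in scGRO-seq and from 10.7% in Rpl17 to 27.7% in 2410006H16Rik in AGTuC.

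**Figure D2:**
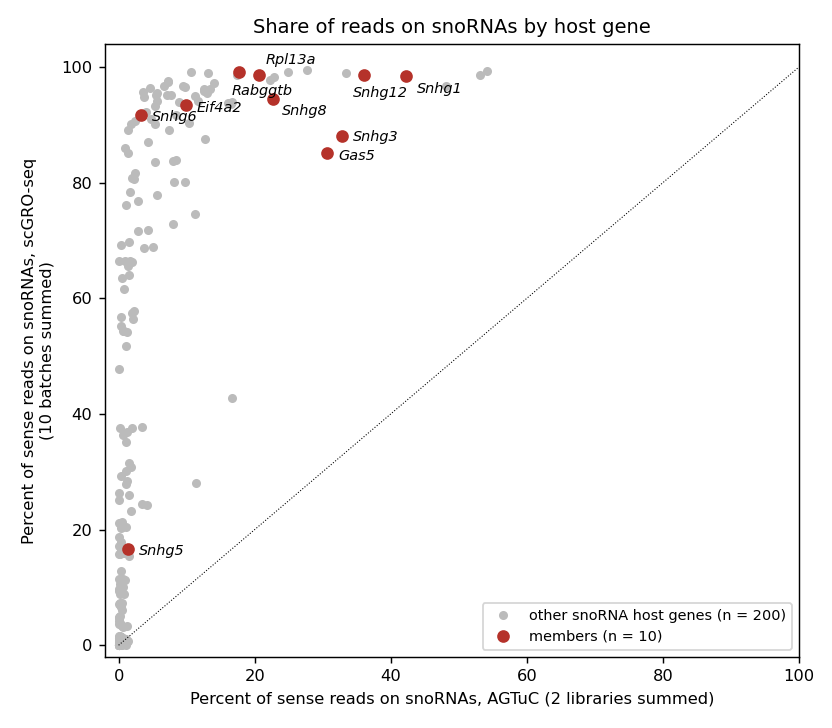
Percent of sense reads on annotated snoRNAs in scGRO-seq (y axis, 10 batches summed) against AGTuC (x axis, 2 libraries summed) for the members (red, n = 10) and 200 other snoRNA host genes (grey), with the line of equal values dotted. Every member lies above the line, and 9 of them lie above 85% in scGRO-seq while Snhg5 is at 16.6%.

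The position of the RNA 3′ end inside the snoRNA windows did not itself choose the members, and it was tested. It is measured on the snoRNA reads that the choice used, so it is not independent of their share. In AGTuC the windows were 0.0892 (Snhg5) to 3.62 (Rabggtb) times as dense in reads as the rest of the host. In scGRO-seq the ratio was 20.6 or more outside Snhg5. How far the lower share in AGTuC sets the lower percent was not tested, so these tests are no separate support for the share. The percent of snoRNA reads whose RNA 3′ end lay within 5 nt of the annotated 3′ end was 55.1% in the lowest, 67.4% in the median and 77.0% in the highest scGRO-seq batch. The inAGTuC libraries gave 45.4%, 41.4%, 8.06% and 64.8%, and the AGTuC libraries 17.6% and 22.3%. Only Exp211, at 55.1%, lay below the highest inAGTuC library, and no batch overlapped AGTuC. The mean of scGRO-seq, 68.5% ± 6.22 (SD, n = 10), was 28.6 points above that of inAGTuC (39.9% ± 23.6, SD, n = 4; exact permutation test, two-sided, p = 0.00200, adjusted p = 0.00999). It was 48.5 points above the AGTuC mean of 20% (n = 2; exact permutation test, p = 0.0152, the smallest this design allows, adjusted p = 0.0303). Within Exp208 the scGRO-seq value was 66.7%, and the inAGTuC values were 45.4% and 41.4%. Within Exp261, which is outside the 10 batches, scGRO-seq had 62.7% and inAGTuC library 4 had 64.8%. Library 4 was not lower there, but its assay is in doubt, so this pair cannot decide whether the difference holds. All adjusted p-values are Benjamini-Hochberg values over the same 10 tests. Over the alternatives the difference from inAGTuC was 18 points (without library 3) to 36.9 points, with adjusted p from 0.00666 to 0.0233. That from AGTuC was 27.6 to 57.5 points, with adjusted p from 0.0208 to 0.130, and only the batch as the unit lost the call.

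Most members followed this order, and the pooled values of Rabggtb did not. The pooled percent at the annotated end in scGRO-seq was 86.6% for Snhg1, 81.4% for Snhg12, 81.3% for Rpl13a, 73.1% for Gas5, 58.5% for Eif4a2, 50% for Snhg6, 48.4% for Snhg8 and 40.7% for Snhg3. Snhg5, with 75 snoRNA reads, had 45.3%. In AGTuC the genes other than Snhg5 and Rabggtb had between 3.57% (Snhg8) and 24.6% (Eif4a2). For Rabggtb the percent was 46.4% in scGRO-seq, 53.8% in inAGTuC and 53% in AGTuC, and its scGRO-seq batches ran from 33.7% to 93%. In the pooled scGRO-seq reads the most frequent end of its Snord45c lay 8 nt past the annotation and that of SNORD45 7 nt past, outside the limit of 5 nt. In each of Exp156, Exp160, Exp208 and Exp211 these ends lay at 2 nt and −2 nt from the annotation, inside the limit. The pooled values of Rabggtb thus mix batches with different ends.

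Reads of C/D snoRNAs ended at the annotation more often than those of H/ACA snoRNAs. C/D snoRNAs of the members had 58.9% in the lowest, 69.9% in the median and 81.9% in the highest batch at the annotated end, and H/ACA snoRNAs 28.1%, 52.4% and 71.1%. The C/D value was higher in 9 of 10 batches, by a mean of 18.3 points (exact sign-flip test over batches, p = 0.00391, adjusted p = 0.0130). The exception was Exp236, with 66.4% for C/D and 71.1% for H/ACA, and Exp236 is the most deeply sequenced batch. There the most frequent ends of the H/ACA snoRNAs Snora16a and Snora61 lay 5 nt past the annotation, on the limit. Those of the C/D snoRNAs SNORD45 and Snord45c lay 7 and 8 nt past it, outside the limit. The part of the limit in this exception was not tested. Many H/ACA reads ended inside the snoRNA: 32.5% of the H/ACA reads of an average scGRO-seq batch ended more than 20 nt before the annotated end, against 6.36% of the C/D reads. In AGTuC the corresponding values were 75.7% and 54%. The annotated H/ACA snoRNAs were 62 to 205 nt long and the C/D snoRNAs 45 to 126 nt. A longer snoRNA has more bases before this cut, and the part of length in the gap was not tested.

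**Figure D3:**
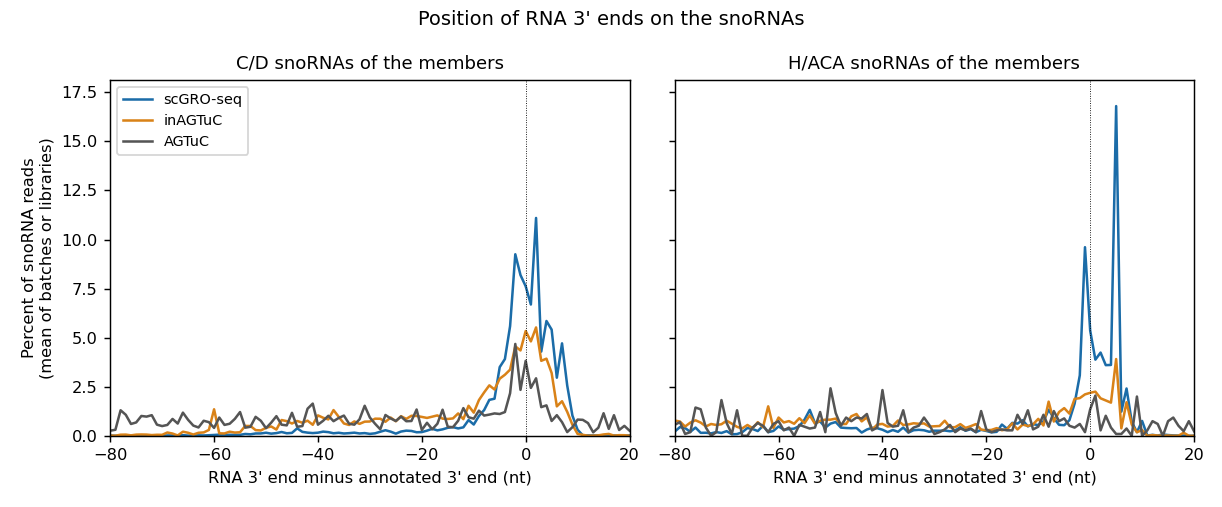
Percent of snoRNA reads by the position of the RNA 3′ end (x axis, nt from the annotated 3′ end, negative inside the snoRNA) for C/D (left) and H/ACA (right) snoRNAs of the members, as means over 10 scGRO-seq batches, 4 inAGTuC and 2 AGTuC libraries. The scGRO-seq lines peak just before and just after the annotated end, as means over batches whose most frequent ends differ. The AGTuC line of C/D snoRNAs also rises near the end, to 4.68% at −2 nt. Of the AGTuC reads, 54% (C/D) and 75.7% (H/ACA) lie more than 20 nt before the end.

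Single snoRNAs showed how narrow the ends were. Of the 230384 reads on the members' snoRNAs in scGRO-seq, Exp236 held 107044 and Exp260b 55459, so pooled positions mostly follow these batches. In the pooled cells 35 of the 38 snoRNAs had at least 1000 reads. The most frequent single base of these held 8.42% to 56.8% of the reads of its snoRNA. That base lay past the annotated end in 25, at it in 3 and before it in 7 of them, and within 5 nt of it in 25. The reads of Snora16a were the sharpest, with 56.8% on the base 5 nt past the end, in the bases printed after the annotated sequence. SNORD28 had 50.1% on the base 2 nt past the end, and Snora61 48.1% on the base 5 nt past it. The inAGTuC pool also rests mostly on library 4, so comparing the pools compares few libraries rather than the assays. In inAGTuC 27 of the 35 snoRNAs had their most frequent base within 2 nt of that in scGRO-seq. In AGTuC 3 of the 35 did, but with 27 to 277 reads on each of them its most frequent base rests on few reads, so that count is not evidence of a difference.

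The most frequent end also moved between batches. Taking for each batch the snoRNAs with at least 20 reads, the median over snoRNAs of the most frequent end was at −1 nt from the annotated end in Exp156 and Exp160, −1.50 nt in Exp208 and −6.50 nt in Exp211. In the other 6 batches it was past the end, at 4 nt in Exp236 and Exp260b, 2.5 in Exp260, 2 in Exp246, 1.50 in Exp264a and 1 in Exp263. No snoRNA of the first 4 batches had its most frequent end 3 to 10 nt past the annotation, whereas 15 to 25 snoRNAs did in each of the other 6. The inAGTuC libraries of Exp208 were at −4.50 and −6 nt, library 3 at −40 nt and library 4 at 3 nt. AGTuC was at −21 and −29.0 nt.

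For some snoRNAs the same bases recurred. SNORD45 of Rabggtb ended most often 2 nt before the annotation in each of the first 4 batches, with 40.1% to 46.1% of its reads there, and 7 nt past it in each of the other 6, with 34.2% to 46.6%. Snora16a of Snhg12 changed from 1 nt before to 5 nt past the end and Snord2 of Eif4a2 from 1 nt before to 4 nt past it, with the same split of batches. SNORD24 of Gas5 ended 2 or 3 nt before the annotation in the 4 batches, 4 nt past it in 5 and at it in Exp264a. In the printed sequences of these 4 snoRNAs, the positions are the last bases of the annotated run and the bases added after it. They are examples chosen after their values were seen: the most frequent end ranged over more than 20 nt between batches in 12 snoRNAs, up to 122 nt in Snora73a and 117 nt in Snora73b. Part of these ranges rests on few reads, such as the most frequent end of Snora73b in Exp246, which held 9.38% of 32 reads. Median read length on the members' spans was 55 to 65.0 nt in the first 4 batches and 49 to 60 nt in the others. The study describes several barcode adaptors, 1 of them with the extra bases ACAGG beside the joined end. The labels do not give the adaptor of each batch. The part of adaptor, read length, library and batch in this shift was not tested.

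**Figure D4:**
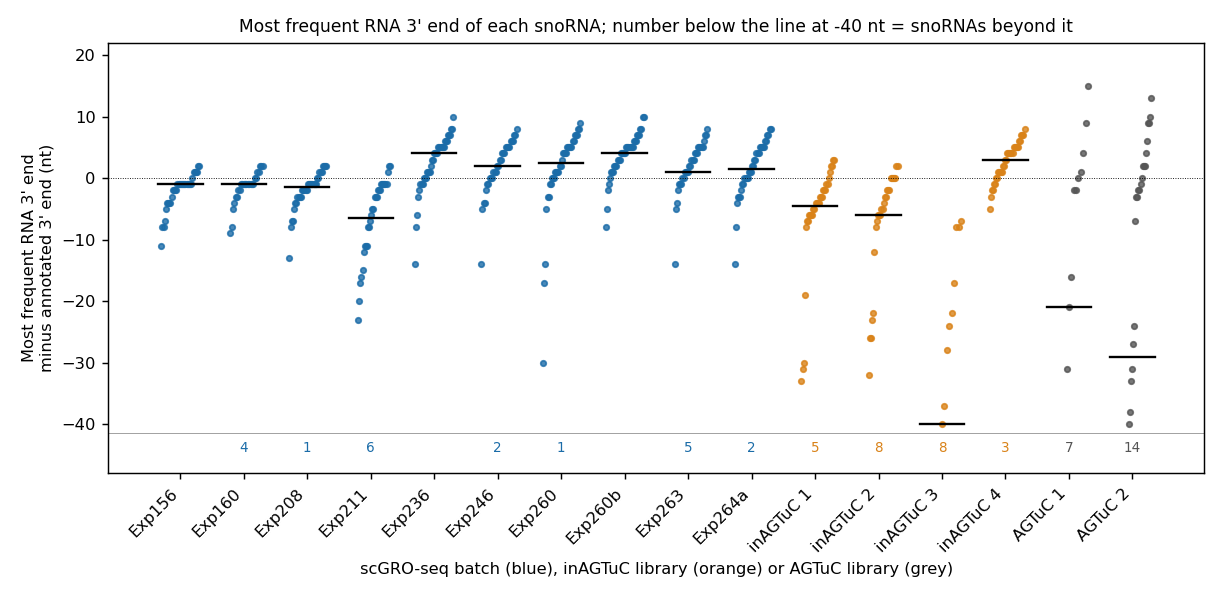
Most frequent RNA 3′ end of each snoRNA with at least 20 reads, in nt from the annotated 3′ end (y axis), by scGRO-seq batch, inAGTuC library and AGTuC library (x axis). Points are snoRNAs, bars are medians and the numbers below the line count snoRNAs more than 40 nt before the end; the medians lie before the end in Exp156, Exp160, Exp208 and Exp211, where 6, 5, 7 and 3 snoRNAs lie past it, and past the end in the other 6 batches.

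Reads next to the snoRNAs were uneven. In the flanks 21 to 120 bp from the annotated snoRNA, inside the host and outside other snoRNA windows, reads were fewer downstream than upstream in each of the 10 scGRO-seq batches. The log2 ratio of downstream to upstream reads was −2.54 in the lowest, −0.47 in the median and −0.24 in the highest batch, with a mean of −0.64 ± 0.68 (SD, n = 10; exact sign-flip test, p = 0.00195, the smallest this design allows, adjusted p = 0.00999). The lowest value came from Exp246, which had 69 upstream and 11 downstream reads. The inAGTuC libraries gave −0.93, −0.52, −3.72 and −0.82, and AGTuC −0.07 and −0.09. With all batches labelled scGRO-seq included the mean was −0.11 (adjusted p = 0.863), the only alternative of 17 that lost the call, so the statement holds for the 10 batches.

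Where the reads left after removal of the snoRNAs lay within the hosts depended on Gas5. Reads within the first 500 bp of the span made up 5.52% in the lowest, 6.81% in the median and 11.5% in the highest scGRO-seq batch, 8.04%, 14.2%, 20.6% and 6.96% in inAGTuC, and 22.6% and 24.2% in AGTuC. The mean of scGRO-seq minus that of AGTuC was −15.7 points (exact permutation test, p = 0.0152, adjusted p = 0.0303), and minus that of inAGTuC −4.71 points (exact permutation test, adjusted p = 0.0568). By gene, the pooled share in scGRO-seq and AGTuC was 28.8% and 59.6% for Snhg3, 22.3% and 43.8% for Snhg6, 20.2% and 29.1% for Rpl13a, and 0.0887% and 5.12% for Gas5. It was not lower in scGRO-seq for Snhg5 (63.2% and 51.9%), Snhg1 (13.5% and 10.2%) and Snhg12 (32% and 30%). The first call rests on Gas5, most of whose remaining reads lay on Mir5117: with the GENCODE snoRNAs removed the difference from AGTuC was −4.59 points (adjusted p = 0.387), and without Gas5 it was −5.79 points (adjusted p = 0.303). Its adjusted p ran from 0.0253 to 0.736 over the 22 alternatives, of which 17 kept the call.

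The share on annotated exons turned with the same choice. With RefSeq snoRNAs removed it was 11.3% in the lowest, 15.8% in the median and 35.1% in the highest scGRO-seq batch and 28.8% and 29.3% in AGTuC, a mean difference of −11.1 points (exact permutation test, p = 0.0455, adjusted p = 0.0568). With the GENCODE snoRNAs removed as well, the sign changed and scGRO-seq was 11.7 points higher (exact permutation test, adjusted p = 0.0303), and without Gas5 it was 11.5 points higher (adjusted p = 0.0505). By gene, the pooled share in scGRO-seq and AGTuC was 1.97% and 14.3% for Gas5, but 49.5% and 32.2% for Eif4a2, 37.6% and 29.5% for Rabggtb and 33.5% and 26.1% for Rpl13a. Over the alternatives of this comparison the adjusted p ran from 0.0303 to 0.863. The inAGTuC libraries had 14.1%, 23.2%, 30.9% and 21.5%, and the difference of scGRO-seq from their mean was −4.42 points (exact permutation test, adjusted p = 0.312).

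Antisense reads were scarce in AGTuC. Of reads of both strands outside the snoRNA windows, 1.39% in the lowest, 7.86% in the median and 12.9% in the highest scGRO-seq batch were antisense, 17.8%, 17.2%, 25.6% and 4.30% in inAGTuC, and 1.69% and 1.45% in AGTuC. Exp264a, at 1.39%, was the only scGRO-seq batch not above AGTuC. The mean of scGRO-seq minus that of inAGTuC was −8.61 points (exact permutation test, p = 0.0250, adjusted p = 0.0416), and it was 6.05 points above that of AGTuC (p = 0.106 by the same exact test, adjusted p = 0.118). By gene, Snhg12 had the highest pooled share in scGRO-seq, 34.3% or 204 reads, against 22.1% in inAGTuC and 1.11% in AGTuC. The first call was kept in 9 of 25 alternatives, and the adjusted p ran up to 0.162 without inAGTuC library 3. Within Exp208 the shares were 12.4% in scGRO-seq and 17.8% and 17.2% in inAGTuC, and within Exp261, outside the 10 batches, they were 3.97% in scGRO-seq and 4.30% in inAGTuC library 4.

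Outside the small RNAs most hosts were lower in scGRO-seq than in AGTuC. For Gas5 the level was 243 RPM in the lowest, 550 in the median and 1422 in the highest scGRO-seq batch against 286 and 280 RPM in AGTuC. For Rabggtb it was 20.9, 43.7 and 98.6 RPM against 155 and 157, and for Eif4a2 47.2, 80.2 and 247 RPM against 333 and 335. Gas5 overlapped AGTuC, and Rabggtb and Eif4a2 were lower in every batch, as were Snhg6, Snhg8 and Rpl13a. A mean at least 2-fold lower in scGRO-seq was found for 7 of 10 members, against 44 percent of the 15995 genes with at least 50 reads, and a mean at least 2-fold higher for 1, Gas5, against 19 percent. The groups did not overlap, with scGRO-seq lower, for 5 members against 37.9 percent of all genes, and with scGRO-seq higher for 0 members against 6.78 percent. The median log2 ratio of the members was −1.52 and that of all genes −0.82. The reads on Mir5117 are counted for Gas5 here, and without them its direction turned. With the GENCODE snoRNAs removed Gas5 had 37.6 to 255 RPM in scGRO-seq against 272 and 280 RPM in AGTuC. Snhg12 then had 12.9 to 58.3 RPM against 69.6 and 75.3 RPM. In that setting 8 members had a mean at least 2-fold lower and 0 at least 2-fold higher, and 7 did not overlap, but the shares over all genes were not computed with these snoRNAs removed, so the counts have no background. Against inAGTuC no member reached 2-fold in either direction (3.03 percent of all genes were at least 2-fold higher and 5.70 percent lower), no member lay below all inAGTuC libraries in every batch (0.131 percent of all genes), and the median log2 ratio was 0.10 against −0.15 for all genes.

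Levels outside small RNAs were also set against the members' summed level outside small RNAs over the 16 batches and libraries. Among 3180 genes with at least 1000 reads, Xpo1 (Pearson r = 0.870), which encodes a nuclear export receptor, and 2900060B14Rik (r = 0.861) ran closely with it. Outside the RefSeq snoRNAs Gas5 had a mean of 730 of the members' 1102 RPM in scGRO-seq, mostly on Mir5117. Over the 10 scGRO-seq batches alone the values were 0.776 and 0.806. The points share library depth and assay, and the correlations are descriptions. Xpo1 had 89.7 to 273 RPM in the scGRO-seq batches.

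In single cells most hosts seen more than once were seen so through reads on or within 20 bp of a snoRNA. Of the 25180 combinations of 2518 cells and 10 members, 16634 (66.1%) had 2 or more sense reads, 2209 (8.77%) had them without the RefSeq snoRNA reads, and 657 (2.61%) without the GENCODE snoRNAs as well. With the window cut to the annotated snoRNAs, 12727 combinations kept 2 or more reads outside them. Reads that end just past the annotation, where many snoRNAs had their most frequent end, count as outside in that number. With all deposited reads counted, molecules found in several libraries included, 3681 combinations had 2 or more reads outside the RefSeq snoRNAs. In the median cell the members' snoRNAs took 1.96% of all UMIs (0.0456% to 9.77%), and 0 of 2518 cells had no such read. The cells had 1177 to 51431 UMIs, with a median of 3434.

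Rabggtb had 2 or more reads in 2493 cells (99.0%) with all reads and in 73 (2.90%) without its snoRNAs. For Snhg1 the numbers were 2416 and 87 cells, for Snhg12 2362 and 39, for Rpl13a 2275 and 25, and for Eif4a2 2149 and 173. Snhg3 went from 1324 to 90 cells, Snhg6 from 545 to 11, Snhg8 from 525 to 7 and Snhg5 from 48 to 34. All of these genes except Snhg5 therefore lost more than 90% of their multi-read cells. The loss follows from their share on snoRNAs, and both measures were used for the choice. It was not computed for the other hosts, so it has no background and nothing further is read from it. Gas5 went from 2497 (99.2%) to 1670 cells (66.3%) with the RefSeq snoRNAs removed, and to 142 (5.64%) with Mir5117 removed too. The largest number of Gas5 reads in 1 cell was 367 with all reads, 50 without RefSeq snoRNAs and 6 without Mir5117. Batch Exp236 supplied 812 of the cells, and without it 10709 combinations had 2 or more reads, and 1281 without snoRNA reads.

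**Figure D5:**
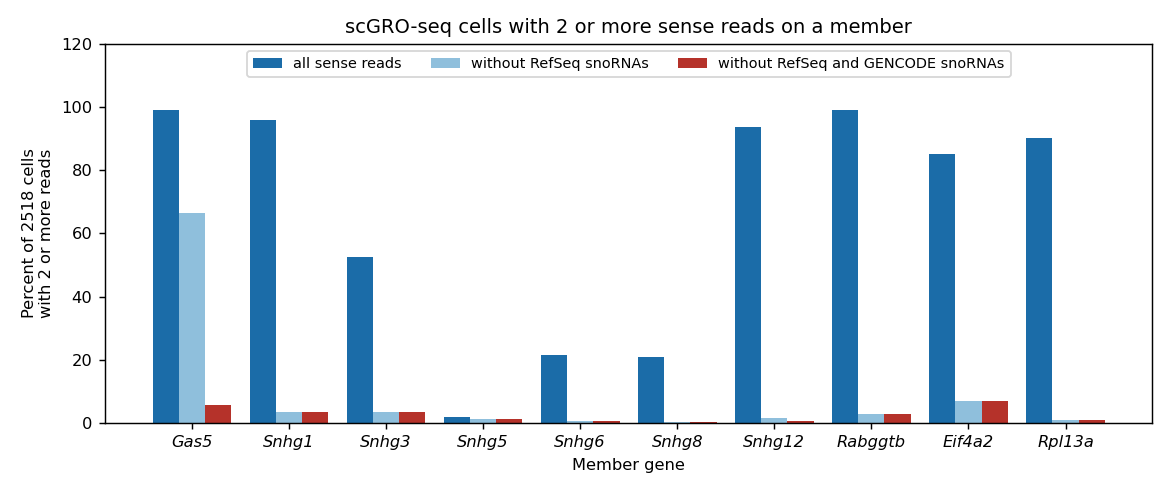
Percent of the 2518 scGRO-seq cells with 2 or more sense reads on a member, counted with all sense reads (dark blue), without reads on RefSeq snoRNAs (light blue) and without reads on RefSeq and GENCODE snoRNAs (red). For Gas5 the bars fall from 99.2% to 66.3% and 5.64%, and for the other members except Snhg5 nearly all of the fall comes with the RefSeq snoRNAs.

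Duplicate removal by position and UMI sets a ceiling on counts at 1 base. The UMI was taken as 5 nt, which allows 1024 sequences. The study reports a range of UMI lengths over its adaptor sets, so this ceiling may differ between libraries. The most UMIs kept for 1 barcode at 1 position on a member's snoRNA was 50 in scGRO-seq, 30 in inAGTuC and 34 in AGTuC, with a median of 1. In scGRO-seq 54.8% of kept snoRNA reads lay at positions with 2 or more UMIs of 1 barcode. Median mapping quality on the snoRNAs was 23 in scGRO-seq and inAGTuC and 40 in AGTuC, close to the 24, 24 and 40 of the members' other reads, and the median read length was 58, 49 and 69 nt.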

How the data were processed

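The members and lists were chosen with earlier results of these data known. The authors trimmed reads with Cutadapt, split them by cell barcode, removed ribosomal RNA, aligned to mm10 with Bowtie2 and removed duplicates with UMI-tools by position and UMI, and deposited 82 lists of aligned reads, each with a mapping quality score, barcode and UMI. The deposited score column was used only as mapping quality. The base at the barcoded side was taken as the RNA 3′ end, and reads were counted in the RefSeq annotation of GRCm38. Molecules that occurred in several libraries were not counted. Of 76 scGRO-seq lists, 53 belong to the 10 batches used, and cells needed at least 1000 UMIs and 750 genes or enhancers in libraries of at least 24 such cells (the enhancer list was held in part). The batches used are those a figure of the study names. The named genes were the members, their 3 most read snoRNAs, the 5 other hosts with most snoRNA reads and the 3 genes with the closest levels, of which 1 is not reported here. Differences between batches and libraries were tested by two-sided exact permutation tests and within batches by exact sign-flip tests, with Benjamini-Hochberg adjustment over 10 tests at a threshold of 0.05. With 10 against 4 values the smallest p is 0.000999, and with 10 against 2 it is 0.0152. The scripts ran in Python 3.11.15 with numpy 2.4.6 and pandas 2.3.3 and were tested on simulated data. Limits for a count of 0 are 3 counts. Counting errors treat UMIs as independent molecules.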

Additional observations from a re-analysis of the deposited data

Results flagged for a closer look

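Of 78 groups of values examined, 19 values stood apart from their group by more than the Dixon criterion at the 95% level, and chance flags about 1 in 20 groups. Exp156, the scGRO-seq batch with the fewest reads, was high on the snoRNAs of Snhg3 (1475 RPM, next highest 628), Snhg6 (834, next 268), Snhg8 (641, next 204) and Eif4a2 (3451, next 1585). It was also high outside the snoRNAs of Rabggtb (98.6 RPM, next 56.4) and Eif4a2 (247, next 129), so in Eif4a2 both kinds of read were high. Snhg5 had its highest snoRNA level in Exp236 (12 RPM, next 4.95), and Snhg6 its lowest share on snoRNAs in Exp208 (78.9%, next 87.1%).

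For the pooled members, Exp211 had the lowest share of snoRNA reads at the annotated 3′ end (55.1%, next 66.5%). Exp160 had the highest exon share outside snoRNAs (35.1%, next 22%), and Exp246 the lowest downstream to upstream log2 ratio beside the snoRNAs (−2.54, next −0.64).

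Libraries 3 and 4 of inAGTuC stood apart in opposite ways. Library 4 was high outside the snoRNAs of Snhg1 (115 RPM, next 23.1) and Snhg5 (55.7, next 17.1) and on the snoRNAs of Rpl13a (3935, next 757). Library 3 had the lowest share on snoRNAs for Snhg8 (82.6%, next 95.3%), Snhg12 (51.2%, next 91.2%) and Rabggtb (73.3%, next 94.7%), a high level outside the snoRNAs of Snhg12 (121 RPM, next 52.3) and the lowest flank ratio (−3.72, next −0.93).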

How the results depend on the processing

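The higher share of RNA 3′ ends at annotated snoRNA ends in scGRO-seq and the difference between C/D and H/ACA snoRNAs kept their direction and stayed past the threshold in every alternative run, except that with the libraries of 1 batch label averaged (chosen after seeing the data) the 3′ end difference from AGTuC, 48.5 points, missed it, as did the promoter-proximal difference from AGTuC (−15.7) and the antisense difference from inAGTuC (−8.18). The 3′ end share is measured on the snoRNA reads that the choice used, in every alternative. Its kept call is therefore no separate support for the share on snoRNAs. The causes of the changes below were not tested beyond what each alternative removes. The share of members' reads on snoRNAs (scGRO-seq, inAGTuC, AGTuC) was 52.2%, 63.9% and 15.8% with no window around the snoRNAs, and in AGTuC 29.1% with 50 bp and 20.4% with UMIs at 1 position counted once (level 1313 RPM). In scGRO-seq it was 85.4% as a mean of the members' own percentages and 96.8% without Gas5 (AGTuC 19%), and 97.2% with GENCODE snoRNAs. With no window, reads that end just past an annotated snoRNA count as outside it. Cells with 2 or more reads outside snoRNAs became 12727 with no window, 3681 with all deposited reads and 657 with GENCODE. Without 1 batch they ran from 1281 to 2175, and with snoRNA reads from 10709 to 16106, the lowest without Exp236. The promoter-proximal difference from AGTuC weakened to −9.02 with all scGRO-seq batches, −7.42 by members' means, −5.79 without Gas5 and −4.59 with GENCODE. That from inAGTuC passed the threshold with no window (−5.16) and without Exp246, Exp264a or inAGTuC 1 or 4, reversed to 1.96 with all batches, and ran from −5.13 to −4.46 without 1 batch and −6.54 to −1.99 without 1 inAGTuC library. The exon difference from inAGTuC reversed to 3.21 with all batches and 4.39 without Gas5. That from AGTuC reversed to 8.06 by members' means, 11.5 without Gas5 and 11.7 with GENCODE, and ran from −13 (past the threshold, without Exp160) to −10.3 without 1 batch. The antisense difference from inAGTuC missed the threshold with all reads (−6.18), mapping quality of at least 20 (−8.38), UMIs at 1 position counted once (−8.30), 50 bp (−10.5), members' means (−8.49), without Gas5 (−8.32) and with GENCODE (−8.78). Without 1 batch it ran from −9.20 to −7.91 and without 1 inAGTuC library from −12.6 to −5.48, missing it without Exp156, Exp211, Exp236, Exp260b, Exp263 or inAGTuC 1, 2 or 3. That from AGTuC ran from 5.46 to 6.74, past the threshold without Exp264a. The flank ratio was −0.11 with all batches. No paired analysis was possible because the replicate numbers follow accession order, and of the 10 batches only Exp208 holds 2 of the assays. With 2 AGTuC libraries and 75 snoRNA reads on Snhg5, small differences there were not detectable at this depth.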
